A study of Mus musculus with 6 samples.

Results

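Histone lysine demethylases of the JmjC family remove methyl groups from histone tails, and here 10 of them were followed by their transcripts in AML12 cells, a mouse hepatocyte line started from mice carrying a human TGF alpha transgene. The 10 genes were taken by name (Kdm2a, Kdm2b, Kdm3a, Kdm3b, Kdm4a, Kdm4b, Kdm4c, Kdm5b, Kdm6a and Kdm6b), and all 10 were found among the 25330 genes listed for each library. The dataset held 6 RNA-seq libraries of wild-type cells. In 3 of them, cells stayed at 21% oxygen in DMEM/F12 medium with 10% fetal bovine serum, an insulin, transferrin and selenium supplement and 40 ng/mL dexamethasone (normoxic control). In the other 3, cells were moved to medium lacking serum and glucose, kept for 6 h in a chamber with 1% oxygen and reoxygenated for 2 h (H/R), so that effects of oxygen, of reoxygenation and of the medium cannot be told apart. All cells were of 1 line, and nothing in the labels states that replicates came from separate cultures, so p-values measure the spread between these libraries, which may be technical.

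JmjC demethylases need molecular oxygen, ferrous iron and 2-oxoglutarate for each catalytic cycle, and their activity can therefore fall when oxygen is scarce. Several of their genes are also targets of the hypoxia-inducible factors (HIFs), which bind the short core of the hypoxia response element in DNA and raise transcription when oxygen is low. In this report Kdm3a, Kdm4b and Kdm4c are called established HIF targets, since they have long been described as such. Kdm2b, Kdm5b and Kdm6b are called reported HIF targets, and Kdm2a, Kdm3b, Kdm4a and Kdm6a the other demethylases. These groups are background knowledge, and HIF binding was not measured in these cells. Members and lists were chosen with earlier results of these data known, so a difference between the groups is no independent test.

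The core of the hypoxia response element is spelled ACGTG or GCGTG, and both spellings were searched on both strands in the 250 bases before the transcription start sites that RefSeq gives on GRCm38.p6. A CACGTG site, which is also an E-box, holds ACGTG on each strand and so counts as 2 matches. Among 32851 such windows of all genes, 16.6% held ACGTG, 28.2% held GCGTG and 38.6% held either. Windows were found for 6 members, and 8 of their 12 windows (from 5 of the 6 genes) held a match. Some windows of Kdm2b overlap, as do some of Kdm3a. The 38.6% counts windows and not genes, and a gene with several windows has more chances of a match. Windows are shown 5′ to 3′ on the strand of the gene, with the matching bases in capitals, for 3 members whose transcripts more than doubled and for Kdm4a and Kdm6a, which rose less. They lie at chr6:71632918-71633167 (minus strand, Kdm3a), chr4:74251629-74251878 (plus strand, Kdm4c), chr1:134559928-134560177 (plus strand, Kdm5b), chr4:118180044-118180293 (minus strand, Kdm4a) and chrX:18162325-18162574 (plus strand, Kdm6a).
Kdm3a: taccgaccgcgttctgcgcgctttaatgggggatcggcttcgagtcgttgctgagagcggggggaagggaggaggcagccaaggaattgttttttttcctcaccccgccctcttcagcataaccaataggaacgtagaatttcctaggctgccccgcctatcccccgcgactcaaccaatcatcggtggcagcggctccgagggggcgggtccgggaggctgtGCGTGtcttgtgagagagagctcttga
Kdm4c: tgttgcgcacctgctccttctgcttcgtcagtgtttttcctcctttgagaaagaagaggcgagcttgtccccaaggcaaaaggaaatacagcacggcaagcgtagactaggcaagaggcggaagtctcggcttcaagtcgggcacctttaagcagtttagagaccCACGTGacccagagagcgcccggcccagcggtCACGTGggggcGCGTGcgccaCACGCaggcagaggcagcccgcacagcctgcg
Kdm5b: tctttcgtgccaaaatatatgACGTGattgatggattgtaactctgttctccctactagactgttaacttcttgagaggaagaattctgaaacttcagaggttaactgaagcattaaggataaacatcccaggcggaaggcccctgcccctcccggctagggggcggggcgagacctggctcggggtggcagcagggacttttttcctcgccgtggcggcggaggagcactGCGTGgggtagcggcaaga
Kdm4a: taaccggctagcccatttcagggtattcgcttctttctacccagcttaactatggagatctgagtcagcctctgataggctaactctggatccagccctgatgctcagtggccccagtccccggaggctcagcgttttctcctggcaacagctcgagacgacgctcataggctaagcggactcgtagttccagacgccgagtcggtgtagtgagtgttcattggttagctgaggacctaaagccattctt
Kdm6a: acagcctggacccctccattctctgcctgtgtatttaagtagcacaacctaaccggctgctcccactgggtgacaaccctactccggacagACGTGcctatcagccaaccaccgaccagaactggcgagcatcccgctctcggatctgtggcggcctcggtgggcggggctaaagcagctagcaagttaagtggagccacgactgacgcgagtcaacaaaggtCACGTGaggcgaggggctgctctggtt

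The Kdm4c window held 6 matches, the Kdm6a window 3, the Kdm5b window 2, the Kdm3a window 1 and the Kdm4a window 0. Matches in the Kdm4c and Kdm6a windows include CACGTG sites, each counted on both strands. Kdm2b held at least 1 match in each of its 4 windows, of which 2 overlap for most of their length and hold the same 2 matches. The other 2 windows of Kdm3a and the other window of Kdm4c held none. A match is a description of the letters and not of a bound site. Kdm2a, Kdm3b, Kdm4b and Kdm6b are named without a window.

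Total counts lay between 20438746 and 21854790 per library. Counts were scaled by the TMM method of edgeR. Between H/R and control, 14020 genes with enough counts were tested by the edgeR quasi-likelihood test with Benjamini-Hochberg adjustment. Each adjusted p below comes from that fit unless another scaling or test is named. No 2 replicates were the same within counting noise, as their chi-square divided by its degrees of freedom was at least 2.17. Normoxic control replicate 1 stood apart by transcripts of adult liver, a list of 12 genes whose summed normalized count was 534 there, 136.5 and 137.4 in the other controls and between 70.1 and 101 after H/R. Outside that library the sum was almost wholly 1 gene of the list, Hpx, with 131 and 134 in the other controls. Of 11 genes expected of a hepatocyte line, 9 had 10 or more counts in every library, among them Hnf4a, a liver transcription factor, with normalized counts of 2912 ± 104 in control and 2187 ± 19.4 after H/R (SD, n = 3 each). Of these 11 genes 3 rose and 7 fell after H/R, or 4 and 5 without control replicate 1. Albumin (Alb) was low and uneven in control, at 513, 129 and 197 normalized counts, and was 38.9 ± 6.65 after H/R, whereas the keratin Krt18 rose from 32114 ± 1094 to 50692 ± 408. Of 15 markers of other liver and blood cells, Pecam1, Adgre1, Clec4f, Pdgfrb and Acta2 had at most 2 counts in any library, whereas the duct keratins Krt7 and Krt19 and the duct factor Sox9 were expressed and rose. Of those markers, 14 were among the listed genes, and their summed normalized count was between 27122 and 29850 in control and between 53789 and 56018 after H/R. Most of that sum was Krt7 (mean 9298 in control and 16119 after H/R) and Krt19 (18744 and 37539). The part of these markers in the results on demethylases was not tested. Fewer cells of a kind and less RNA per cell cannot be told apart in bulk libraries.

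Of the 10 demethylase transcripts, 9 were higher and 1 was lower after H/R at an adjusted p under 0.05. Among all 14020 tested genes, 31% were higher and 31.8% lower by the same criterion. With the further requirement of a 2-fold change, 5 members (Kdm4b, Kdm3a, Kdm5b, Kdm4c and Kdm6b) were higher and 0 were lower, against 4.25% of all tested genes higher and 4.27% lower. The lower count was also 0 with DESeq2, and with edgeR at an unadjusted p under 0.05, since the fall of Kdm2b was 1.26-fold. The 3 libraries of each group did not overlap for any of the 10 members, which held for 65.9% of all tested genes. The median log2 fold change was 0.88 over the 10 members and -0.01 over all tested genes. By group of members, it was 1.49 for the established HIF targets (3 of 3 higher), 1.20 for the reported targets (2 of 3 higher, 1 lower) and 0.44 for the other demethylases (4 of 4 higher, none by 2-fold). Scaling by library totals moved the median of all tested genes to -0.12 and gave 3346 genes higher and 5478 lower in place of 4353 and 4453, while the counts of members stayed at 9 and 1. The counts were also 9 and 1 without control replicate 1.

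**Figure D1:**
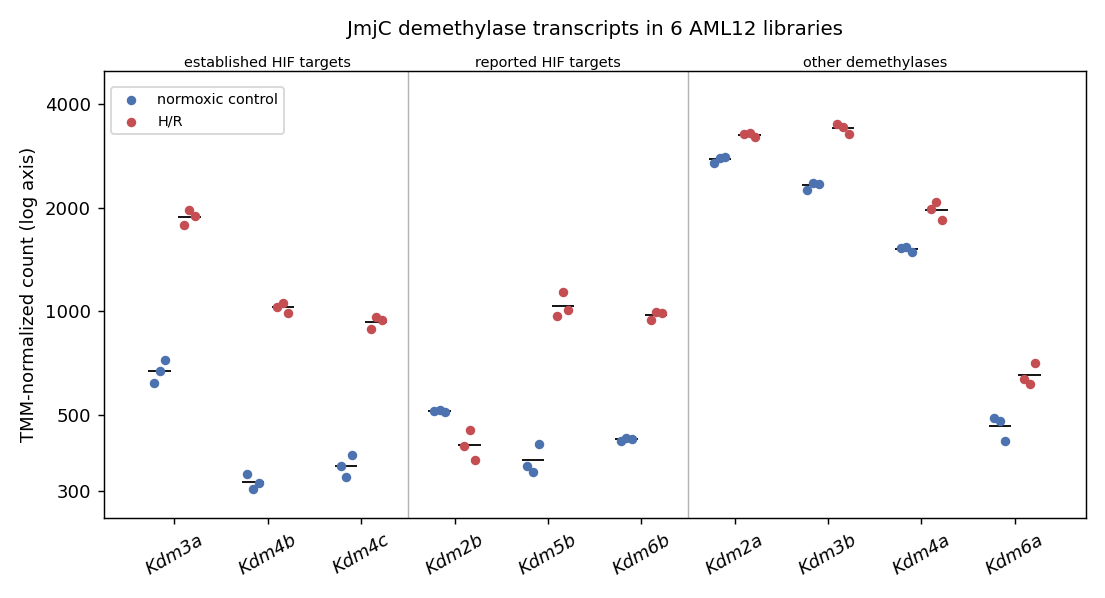
TMM-normalized counts (vertical log axis) of the 10 demethylases in each of the 3 normoxic control libraries (blue) and the 3 H/R libraries (red), with the group mean as a black line. The groups are apart for every gene, with H/R above control for 9 genes and below it for Kdm2b, and the widest gap is that of Kdm4b, from 318 to 1026.

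KDM3 enzymes remove mono- and dimethyl marks from H3K9, lysines whose methylation goes with silent chromatin. Kdm3a (chromosome 6, 71588972 to 71632990, minus strand of GRCm38) had normalized counts of 617, 668 and 722 in control replicates 1, 2 and 3 and of 1784, 1975 and 1893 in H/R replicates 1, 2 and 3. Every H/R library held more than 2 times the level of every control library. The log2 fold change was 1.49 (standard error 0.057, adjusted p = 1.47e-21), or 2.81-fold, and 240 of the 14020 tested genes had a larger one. Its paralog Kdm3b (chromosome 18, 34777008 to 34839370, plus strand) had 2261, 2363 and 2350 in control and 3515, 3431 and 3280 after H/R. Kdm3b thus rose 1.47-fold (log2 fold change 0.55, standard error 0.0435, adjusted p = 3.16e-13). Of the exon length of Kdm3b, 0.745% lies in exons of the antisense gene Gm26538, whose normalized count went from 444 ± 1.62 to 882 ± 58.6 (SD, n = 3 each). The libraries were stranded, but whether the counting used strand is not given in the sources used here.

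KDM4 enzymes remove trimethyl marks from H3K9 and, for some members, from H3K36. Kdm4b (chromosome 17, 56326062 to 56402870, plus strand) had 335, 304 and 315 normalized counts in control and 1029, 1059 and 990 after H/R. This 3.22-fold increase (1.69 on the log2 scale, standard error 0.0642, adjusted p = 6.82e-22) was the largest of the 10 members. Kdm4c (chromosome 4, 74242497 to 74405860, plus strand) had 354, 330 and 382 in control and 891, 963 and 944 after H/R, which was a 2.62-fold increase (1.39 on the log2 scale, standard error 0.066, adjusted p = 3.54e-19). Neither gene had an H/R library within the range of its controls. Kdm4a (chromosome 4, 118136957 to 118180043, minus strand) had 1531, 1536 and 1485 in control and 1984, 2074 and 1847 after H/R. Its increase was 1.30-fold (log2 fold change 0.37, standard error 0.0486, adjusted p = 3.13e-08). No exon of these 3 genes is shared with another gene in the tables.

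KDM5 enzymes remove methyl groups from H3K4, a mark of active promoters. Kdm5b (chromosome 1, 134560171 to 134635285, plus strand) had 355, 341 and 411 normalized counts in control and 967, 1137 and 1005 after H/R. The SD was 89.0 at a mean of 1036 after H/R and 37.1 at a mean of 369 in control. The lowest H/R library was more than 2 times the highest control. The log2 fold change was 1.49 (standard error 0.0721, adjusted p = 3.92e-17), a value next to that of Kdm3a.

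KDM6 enzymes remove di- and trimethyl marks from H3K27, the mark set by the Polycomb complex PRC2. Kdm6b (chromosome 11, 69398508 to 69413675, minus strand), known as a demethylase induced in inflammation and stress, had 419, 428 and 425 normalized counts in control and 945, 996 and 986 after H/R. The control libraries lay within 10 counts of each other, and the log2 fold change was 1.20 (standard error 0.0602, adjusted p = 1.66e-18), or 2.30-fold. Of the exon length of Kdm6b, 4.11% lies in exons of the antisense gene Kdm6bos, which went from 39.1 ± 14.6 to 84.0 ± 3.18 normalized counts (SD, n = 3 each). Kdm6a (chromosome X, 18162575 to 18279936, plus strand), a subunit of the MLL3 and MLL4 complexes, had 489, 478 and 419 in control and 633, 615 and 709 after H/R. Its log2 fold change was 0.50 (standard error 0.0711, adjusted p = 2.14e-07).

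KDM2 enzymes bind unmethylated CpG islands and remove dimethyl marks from H3K36, and Kdm2b also brings a PRC1 complex to these islands. Kdm2b (chromosome 5, 122870665 to 122989823, minus strand) was the member that fell, from 513, 517 and 508 normalized counts in control to 405, 451 and 369 after H/R. The log2 fold change was -0.33 (standard error 0.0752, adjusted p = 0.000268), and the fall was 1.26-fold. Of its exon length, 8.74% is shared with other genes, among them Rnf34 on the opposite strand, which had 472 ± 10.4 and 431 ± 28.6 normalized counts (SD, n = 3 each) and did not pass the test (adjusted p = 0.116). Kdm2a (chromosome 19, 4314419 to 4398285, minus strand) had 2697, 2803 and 2814 in control and 3279, 3296 and 3216 after H/R. This was the smallest increase of the 9 members that rose, 1.18-fold (0.24 on the log2 scale, standard error 0.0421, adjusted p = 1e-05). On the log2 scale it was 0.13 (adjusted p = 0.00764) when libraries were scaled by their totals.

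Related demethylases were next compared within each library, as the ratio of their RPKM values, which does not depend on how libraries are scaled. The RPKM of Kdm3a was 0.236, 0.244 and 0.266 times that of Kdm3b in control and 0.439, 0.498 and 0.499 times after H/R. This was a change of 0.94 on the log2 scale (standard error 0.0794). The ratio of Kdm4b to Kdm4a went from 0.259, 0.234 and 0.251 to 0.612, 0.603 and 0.633, a change of 1.32 (standard error 0.0475). That of Kdm4c to Kdm4a went from 0.230, 0.213 and 0.256 to 0.446, 0.461 and 0.508, a change of 1.02 (standard error 0.0947). In all 3 ratios the established HIF target gained on its paralog, and no H/R library overlapped a control library. The ratio of Kdm6b to Kdm6a went from 1.01, 1.05 and 1.19 to 1.75, 1.90 and 1.63, a change of 0.70 (standard error 0.096). Kdm6b was ahead of Kdm6a in every library of both groups. The ratio of Kdm2b to Kdm2a moved the other way, from 0.25, 0.243 and 0.238 to 0.162, 0.180 and 0.151, a change of -0.57 (standard error 0.077). Each of the 5 ratios gave p = 0.1 in an exact two-sided permutation test over the 6 libraries (0.1 after adjustment over the 5), which is the smallest p that 3 against 3 allow.

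**Figure D2:**
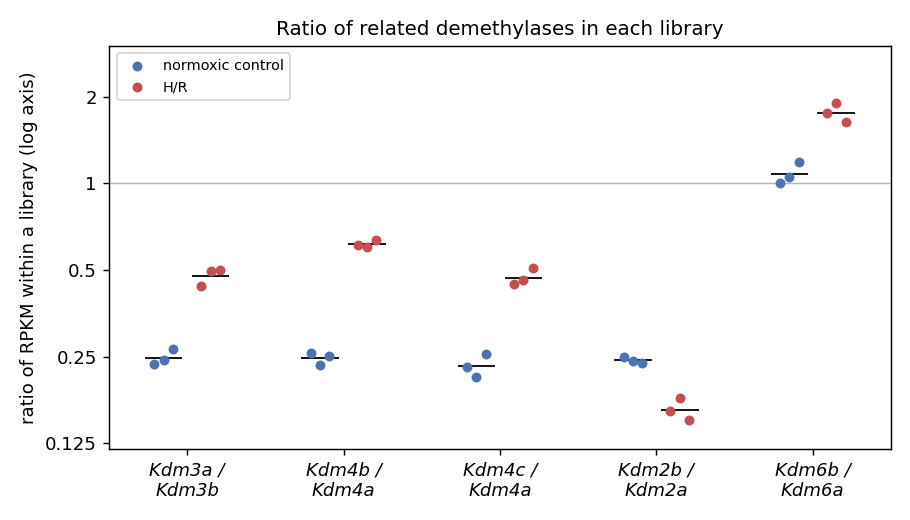
Ratio of the RPKM values of 2 related demethylases within each library (vertical log axis), for 5 ratios, in the 3 control (blue) and 3 H/R libraries (red), with the geometric mean as a black line. The first 3 ratios and that of Kdm6b to Kdm6a are higher in every H/R library, and that of Kdm2b to Kdm2a is lower.

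Levels were also compared between genes per length, as the RPKM values deposited by the authors. In control cells Kdm3b was highest at 16.0 ± 0.574 (SD, n = 3), followed by Kdm4a at 12.9 ± 0.0923 and Kdm2a at 9.50 ± 0.349. Then came Kdm3a at 3.99 ± 0.374, with Kdm4b, Kdm4c and Kdm6b between 2.99 and 3.18, and Kdm5b was lowest at 1.09 ± 0.126. Of the neighbours in that order, Kdm4b and Kdm4c overlapped over the 3 libraries, as did Kdm4c and Kdm6b. After H/R, Kdm3a at 10.4 ± 0.559 overlapped Kdm2a at 10.4 ± 0.0562, and Kdm4b followed at 9.54 ± 0.254. Kdm3b and Kdm4a were still the highest, at 21.8 ± 0.567 and 15.5 ± 0.786, and Kdm2b replaced Kdm5b as the lowest, at 1.71 ± 0.161. Kdm4c, at 7.30 ± 0.327, stayed below Kdm2a and Kdm4b in every H/R library.

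The RPKM values of the 10 members summed to 56.3, 57.7 and 59.1 in the control libraries and to 88.5, 91.7 and 88.5 in the H/R libraries. The established HIF targets held 17.6% ± 0.730 of that sum in control and 30.4% ± 0.685 after H/R (SD, n = 3 each). The share of the other demethylases went from 71.3% ± 0.837 to 57.3% ± 1.01, although their own summed RPKM went from 41.1 ± 0.820 to 51.4 ± 0.946. The reported targets held 11.1% ± 0.107 and 12.2% ± 0.350. By enzyme class, the 2 KDM2 genes summed to 11.8 ± 0.374 and 12.1 ± 0.217 RPKM, and the 3 KDM4 genes to 19.0 ± 0.265 and 32.3 ± 1.11. These sums describe transcripts and not enzyme, and they rest on library totals.

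**Figure D3:**
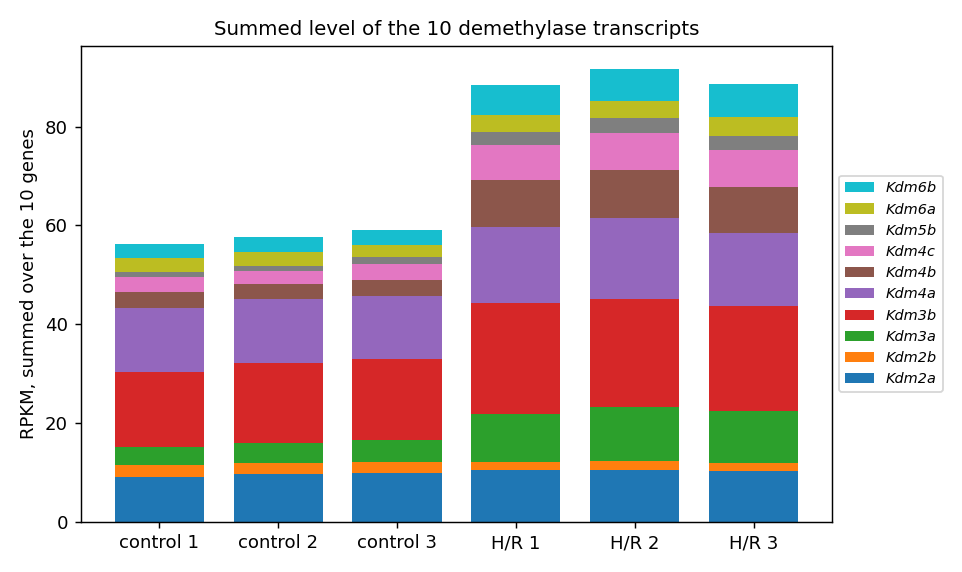
RPKM values of the 10 demethylases stacked in each of the 6 libraries (vertical axis, RPKM summed over the 10 genes). The stacks reach 56.3 to 59.1 in control and 88.5 to 91.7 after H/R, and the band of Kdm3a widens from 3.99 to 10.4 and that of Kdm4b from 3.18 to 9.54 on average.

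Other genes with a JmjC domain showed a mixed picture. Of 21 listed, 18 could be tested, and 8 of them were higher, 3 were lower and 7 did not pass, with a median log2 fold change of 0.19 (7 higher and 4 lower when scaled by library totals). Past 2-fold were Kdm7a, a demethylase of H3K9 and H3K27 (138 ± 12.2 to 393 ± 9.99 normalized counts, SD, n = 3 each, log2 fold change 1.51), Jmjd1c, a relative of Kdm3a and Kdm3b (948 ± 76.6 to 2415 ± 95.6, log2 fold change 1.35), and Hr (17.5 ± 3.69 to 41.0 ± 1.11, log2 fold change 1.22). Kdm5a and Kdm5c, paralogs of Kdm5b, rose by 0.45 and 0.41 on the log2 scale. The 3 that fell were Kdm8 (-0.88), Mina, which is also called Riox2 (-0.74), and Jmjd8 (-0.16). The asparagine hydroxylase Hif1an, which restrains HIF, was higher by 0.17 on the log2 scale (adjusted p = 0.00142). It did not pass with library totals (adjusted p = 0.219) or upper quartile scaling (adjusted p = 0.0531).

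**Figure D4:**
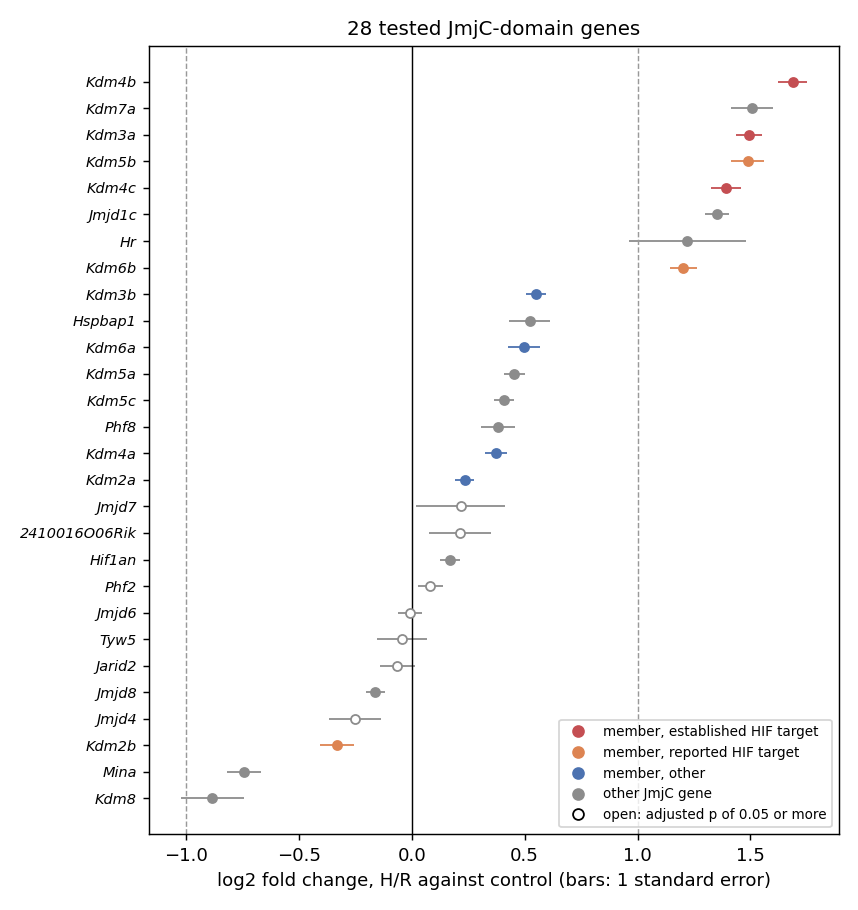
Log2 fold change of H/R against control (horizontal axis, bars of 1 standard error) for the 28 tested genes with a JmjC domain, coloured by group, with open circles where the adjusted p was 0.05 or more and dashed lines at 2-fold. Of the 10 members, 5 lie right of the 2-fold line with Kdm7a, Jmjd1c and Hr, and Kdm2b lies left of 0.

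Among 7 other demethylases that use oxygen on histones, DNA or RNA, 4 were higher, 2 were lower and 1 did not pass. With library totals, 4 were higher and 3 were lower. Tet2, which oxidises 5-methylcytosine, rose from 683 ± 19.4 to 1950 ± 69.1 normalized counts (SD, n = 3 each, log2 fold change 1.52, adjusted p = 3.38e-23). Tet1 was near the limit of detection, at 16.0 ± 5.52 and 7.11 ± 3.91 normalized counts (log2 fold change -1.17, adjusted p = 0.0178), and its groups overlapped. Alkbh5, an RNA demethylase, rose from 2883 ± 105 to 5256 ± 98.4 (log2 fold change 0.87). For comparison, 16 genes known as HIF targets in many cells had a median log2 fold change of 1.72, with 13 higher, 11 of them by 2-fold, and 1 lower. The 3 with the largest change were Adm (3.78), Ndrg1 (3.24) and Bnip3 (3.05), while the 1 lower was Pfkfb4 (-0.85), named after its value was seen. The 3 established HIF targets among the demethylases lay between 1.39 and 1.69, below the median of that list.

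Genes of the methyltransferases that set the same marks, with subunits of PRC2 included, were also measured. All 22 listed could be tested, and their log2 fold changes lay between -0.62 and 0.66, short of 2-fold, a range that also holds Kdm2a, Kdm2b, Kdm3b, Kdm4a and Kdm6a. Of 7 for H3K9, 1 was higher, 3 were lower and 3 did not pass. The count of lower genes was 4 with library totals and 2 without control replicate 1. The largest changes for H3K9 were those of Suv39h1 (-0.62), Setdb1 (-0.46) and Prdm2 (0.32) on the log2 scale. All 6 for H3K4 were higher, with log2 fold changes between 0.17 and 0.48 and Kmt2c highest, but 3 of the 6 passed when library totals were used for scaling. Of the 4 PRC2 genes for H3K27, 2 were higher and 2 were lower, with Ezh1 (0.66), Eed (0.46) and Ezh2 (-0.41) the furthest from 0. Of 5 for H3K36, 3 were higher (2 with library totals) and 2 were lower, with Nsd1 (-0.60), Whsc1l1 (0.43) and Setd2 (0.38) the furthest from 0.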

How the data were processed

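Libraries were grouped by the sample labels (3 normoxic control, 3 H/R). Per the labels, total RNA was extracted with Trizol and stranded mRNA libraries were made. The paper states mapping to GRCm38 with software printed as STRA. The submitters' processing notes name Trimmomatic 0.36, featureCounts of Subread 1.5.1 and edgeR 3.12.1, without roles, and the gene annotation is not given in the sources used here. Counts were deposited by the authors as raw reads per gene. The authors also gave RPKM, which scales each count to gene length and library total and was recomputed with a largest relative error of 1.13e-06.

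The tests were run with edgeR 4.0.16 under R 4.3.3 (filterByExpr, TMM, estimateDisp, robust glmQLFit, glmQLFTest, Benjamini-Hochberg adjustment over 14020 genes), and standard errors were derived from the F statistic. Normalized counts are counts scaled to the mean TMM-adjusted library size. Thresholds were an adjusted p of 0.05 and a fold change of 2. Ratios of 2 genes were tested by exact permutation over libraries. The fit was tested on simulated data. Alternatives were DESeq2 1.42.0, upper quartile scaling, library totals, no filter, at least 10 counts in every library, a replicate block, limma 3.58.1 on log2(RPKM + 1) and log2(RPKM + 0.1), a fold threshold of 1.5, and leaving out each library.

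Members and lists were chosen with earlier results of these data known. Named are all members, tested JmjC genes, and at most 3 genes of another list by the size of their change. Coordinates are those of the tables, counted from 1, and promoter windows came from RefSeq (GRCm38.p6). Overlaps of exons were taken from the tables.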

Additional observations from a re-analysis of the deposited data

How the results depend on the processing

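The direction and the side of the 0.05 threshold held for all 10 members in the 14 alternatives run for each, 6 of which left out 1 library. Kdm2a came closest to the threshold, with adjusted p = 0.0409 by limma on log2(RPKM + 1) and 0.0414 on log2(RPKM + 0.1). The count of members higher by 2-fold was 5 and fell to 3 with limma on log2(RPKM + 1), where Kdm5b (0.88) and Kdm6b (0.89) lay under a log2 fold change of 1, and that pseudocount shrinks changes of low values. It stayed at 5 in the other alternatives, with a fold threshold of 1.5 included. With 1 library left out, the log2 fold change ranged from 1.66 to 1.73 for Kdm4b, from 1.44 to 1.55 for Kdm3a and from -0.41 to -0.26 for Kdm2b. Replicate numbers did not pair the libraries (correlation of deviations from -0.03 to 0.00), and a fit with a replicate block called 9 members higher, 1 lower and 5 higher by 2-fold. Library totals moved the median of PRC2 genes from 0.10 to -0.01, that of the 10 members from 0.88 to 0.77 and that of the established HIF targets from 1.49 to 1.39. Kdm2b, Kdm3b and Kdm6b share exon bases with other genes, and whether strand was used in counting is not given in the sources used here.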

Other observations

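Partners of these enzymes and the enzymes that make or compete with their cosubstrate were also measured. Of 9 genes of the PRC1 complex that Kdm2b brings to CpG islands, 5 were higher, 2 were lower and 2 did not pass, with a median log2 fold change of 0.24, against -0.01 over all tested genes. The largest changes were those of Bcorl1 (720 ± 59.7 to 1319 ± 68.9 normalized counts, SD, n = 3 each, log2 fold change 0.87), Rnf2 (0.77) and Ring1 (0.41). Each went in the direction opposite to that of Kdm2b, whereas the 2 lower genes went in its direction. Ring1 did not pass with library totals (adjusted p = 0.0535). Of 7 further subunits of the complexes that hold Kdm6a, 3 were higher (2 with library totals), 3 were lower and 1 did not pass, and Pagr1a (-0.83), Paxip1 (-0.47) and Dpy30 (-0.38) changed most.

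Of 14 genes for 2-oxoglutarate, succinate and fumarate, 4 were higher, 6 were lower and 4 did not pass (3 higher and 8 lower with library totals). Idh1, the cytosolic enzyme that makes 2-oxoglutarate from isocitrate, fell from 3743 ± 109 to 1677 ± 49.2 normalized counts (SD, n = 3 each, log2 fold change -1.16). Idh3b, a subunit of the mitochondrial isocitrate dehydrogenase, had a log2 fold change of 0.41. No metabolite was measured in these libraries.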
